A study of Mus musculus with 5 samples.

Results

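The chains of the extracellular matrix and of its receptors were followed across 5 RNA-seq libraries of B16F10 cells, a mouse melanoma line. Members were all protein-coding genes whose symbol has the form of a collagen chain (Col), a laminin chain (Lama, Lamb or Lamc) or an integrin chain (Itga or Itgb). This rule on names found 86 of the 54699 genes in the deposited table. Of these, 44 encode collagen chains, 11 laminin chains and 27 integrin chains. The remaining 4 (Itgb1bp1, Itgb1bp2, Itgb3bp and Itgbl1) match the pattern without being integrin chains and are kept apart below. Lamb4 and Col21a1 did not come through the rule and were not analysed here.

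All 5 cultures were B16F10 cells given a lentivirus and grown in DMEM with serum. The first group carried a vector for Myod1, the master transcription factor of skeletal muscle, and the second a vector for Pparg, the nuclear receptor that drives fat cell differentiation. Both were collected on day 8 alongside wild-type cells holding the expression vector with no insert (the expression vector control), so these 2 comparisons share 1 control library. In the fourth group Setdb1, a methyltransferase for histone H3 lysine 9, was lowered with a short hairpin RNA, and these cells were collected on day 7 alongside wild-type cells holding the knockdown vector alone (the knockdown vector control). The promoters in the vectors, the number of hairpins and whether pools or clones were grown are not given in the sources used here. Each group had 1 library, so no difference has a replicate check and no test between conditions exists. The 2 empty vector controls, which differ in vector and day, give the only measure of spread.

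Collagens are trimers that form fibrils (types I, II, III, V and XI), the sheet of the basement membrane (type IV) or smaller assemblies on fibril surfaces (the FACIT group, such as types IX and XVI). Laminins are trimers of an alpha, a beta and a gamma chain, and they start the assembly of the basement membrane. Integrins are pairs of an alpha and a beta chain that hold cells to these proteins: the alpha chains of Itga3, Itga6 and Itga7 bind laminin, those of Itga5, Itgav and Itga2b read the RGD motif of fibronectin and vitronectin, and those of Itga4 and Itga9 bind VCAM1 and other ligands.

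The libraries held between 16214802 and 18300670 reads assigned to genes, and the 86 members took between 0.183% and 0.222% of them. Levels are FPKM, the fragments per kilobase of gene length scaled between libraries, which can be compared between genes. The divisor was between 0.859 and 1.10 times the reads assigned to genes, so comparisons between libraries rest on that scaling. Myod1 had an FPKM of 260 in its own library and Pparg 44.4 in its own, with 0 reads in the other libraries, and Setdb1 was at 0.867 with knockdown against 9.82 in the knockdown vector control. All 9 melanocyte genes checked were above an FPKM of 1 in every library, with summed levels of 7824 and 8555 in the expression and knockdown vector controls. The sum was lower in the Myod1 library (3317) and the Pparg library (2309.8), and 9129 with Setdb1 knockdown. That last sum hides 2 genes at least 2-fold lower and 1 higher than in both controls. Mitf was at 13.7 with Setdb1 knockdown against 41.6 in the knockdown vector control, and Slc45a2 at 113 against 321. Oca2 was at 31.1 against 13.2. Summed muscle markers stood at 21093 with Myod1 expression and at most 14.9 elsewhere, and summed adipocyte markers at 301 with Pparg expression and at most 0.211 elsewhere. Fabp4 (153) and Cd36 (146) held nearly all of that adipocyte sum in the Pparg library. There Plin1 was at 1.25, Cidec at 0.253 and Adipoq at 0.0756, and Lpl had 0 reads. Of 7 fibroblast markers, 5 (Dcn, Dpt, Lum, Thy1 and Twist2) had no reads in any library, and the summed level of the list was between 0.0597 and 0.519. Summed endothelial markers lay between 0.0192 and 0.596, epithelial markers between 0.0723 and 0.473, and immune cell markers between 0.730 and 2.11. In bulk RNA, fewer cells of a type and less RNA per cell cannot be told apart.

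The control melanoma cells had much integrin, less laminin and little collagen RNA. Summed over all chains, integrins reached an FPKM of 222 in the expression vector control and 185 in the knockdown vector control. Laminins summed to 94.8 and 65.4, and collagens to 39.7 and 29.1. A total of 38 members reached an FPKM of 1 in some library and were compared: 14 collagens, 6 laminins, 15 integrins and 3 of the genes that are not chains. Of these, 17 were at or above 1 in all 5 libraries and 10 in a single library. The other 48 stayed below 1 throughout, and Col6a5, Itgb2l, Itgbl1 and Lama1 had no reads at all. The compared members just inside the limit of 1 included Col2a1 (1.16 with Setdb1 knockdown), and those just outside included Col6a1 (0.989) and Col12a1 (0.980), both with Pparg expression.

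The defining collagens of connective tissue were nearly absent. Col1a1 had an FPKM of 0.737 and 0.674 in the expression and knockdown vector controls, Col1a2 had 0.217 and 0.443, and Col3a1 did not pass 0.0661 in any library. Among fibrillar chains Col5a1, which regulates fibril width, was the highest in both controls, at 7.37 and 5.11. Among basement membrane collagens the highest were Col4a2 (4.44 and 4.05) and Col4a5 (4.46 and 3.76), and among FACIT collagens Col16a1 (9.18 and 5.00). Laminin RNA was mostly that of Lama4 and Lama5, Lamb2 and Lamc1. Lama4 stood at 8.14 and 6.82, Lamb2 at 36.6 and 18.7, and Lamc1 at 40.9 and 35.2. Itgb1, the beta chain shared by the most alpha chains, was the highest member in both controls, at 96.6 and 92.8, and the next beta chain was Itgb5 at 37.7 and 28.2. The highest alpha chain was Itga5, the fibronectin receptor chain, at 29.0 and 17.2. The 4 alpha chains that bind collagen (Itga1, Itga2, Itga10 and Itga11) together reached only 0.622 and 0.597.

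**Figure D1:**
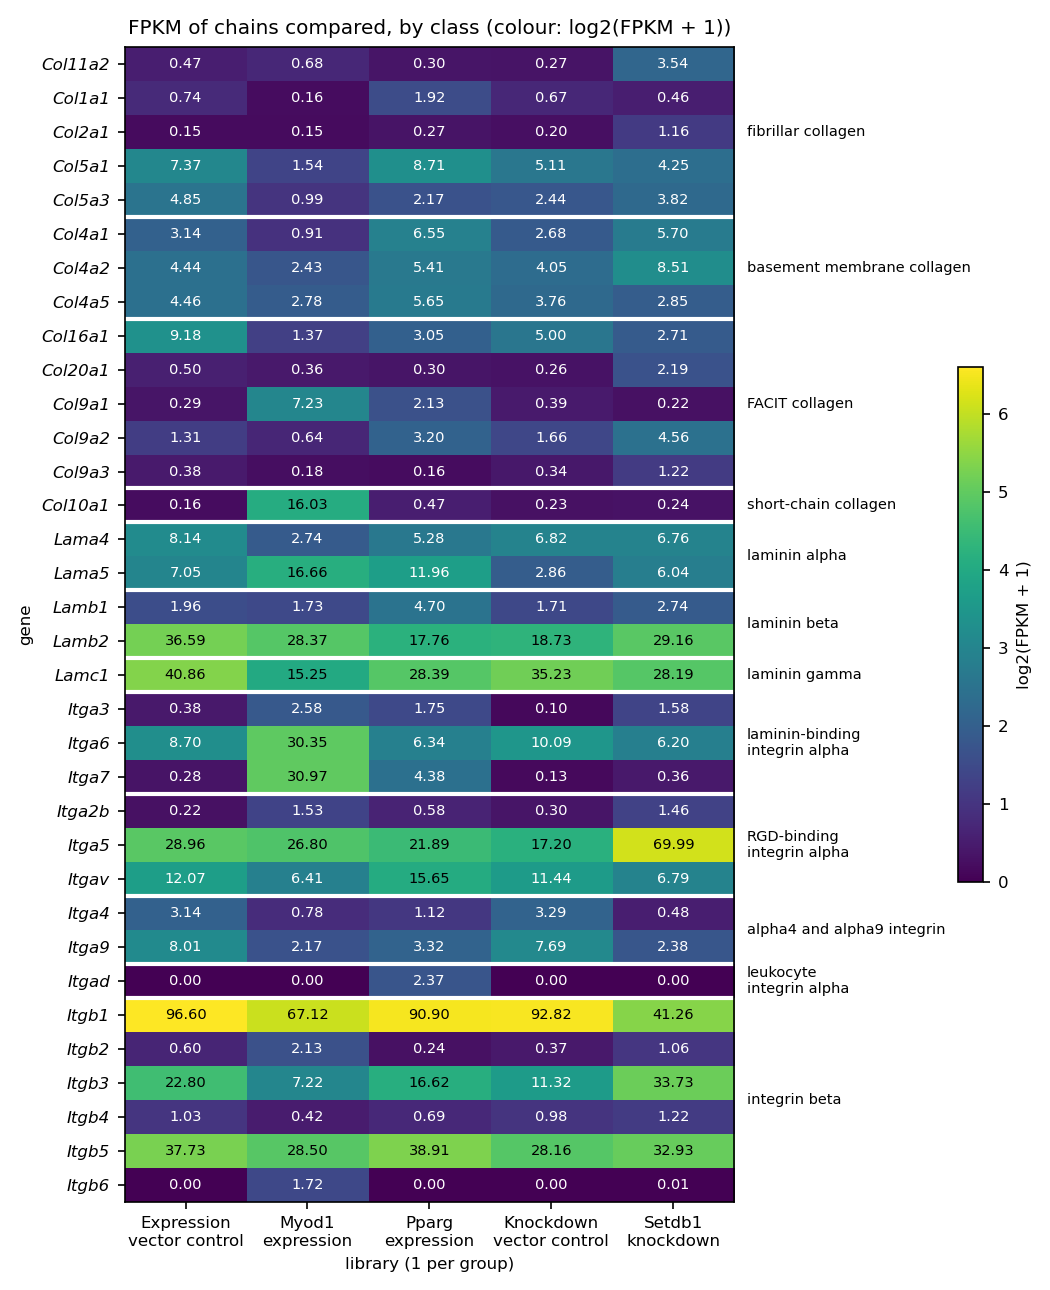
FPKM of the chains compared and reported (rows, grouped by class) in the 5 libraries (columns, 1 per group), with colour on a log2(FPKM + 1) scale and the FPKM written in each cell. Itgb1 is the brightest row in both controls, Itga7 and Col10a1 are bright in the Myod1 expression column, and Itga5 is brightest with Setdb1 knockdown.

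The comparisons below use the log2 ratio, log2((FPKM + 1) / (FPKM + 1)) of a treated library over its control, which understates the change of low genes. A member is called higher or lower at a log2 ratio of at least 1 in size, that is 2-fold. Folds without the added 1 are given with a 95% interval that covers counting error only. Between the 2 controls 0 of the 38 members were higher and 1 was lower in the knockdown vector control, against 1.23% and 1.44% of all 12842 genes compared (2.67% in either direction). The 1 member was Lama5, at 7.05 in the expression vector control and 2.86 in the knockdown vector control, a log2 ratio of -1.06. The median over the 38 members was -0.10, beside -0.00 over all genes. Of the members compared, 15 were below 1 in both controls and came in only through a treated library, so counts of higher members are a description and support nothing.

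The upstream sequences of 6 chains are given because each of these genes differed at least 2-fold from both controls in a treated library, and they cover the 3 families. Shown are the 250 bases before the RefSeq start (GRCm38.p6), 5′ to 3′ on the strand of the gene. Capitals mark the E-box word CANNTG, which is the core of the sites that MYOD1 and related factors bind.
Col10a1, chr10:34389731-34389980, plus strand: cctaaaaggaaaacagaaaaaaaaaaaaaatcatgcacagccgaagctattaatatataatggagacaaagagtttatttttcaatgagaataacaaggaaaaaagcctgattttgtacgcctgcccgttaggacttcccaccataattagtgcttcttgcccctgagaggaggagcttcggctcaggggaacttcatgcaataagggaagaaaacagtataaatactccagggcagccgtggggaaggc
Col9a1, chr1:24177360-24177609, plus strand: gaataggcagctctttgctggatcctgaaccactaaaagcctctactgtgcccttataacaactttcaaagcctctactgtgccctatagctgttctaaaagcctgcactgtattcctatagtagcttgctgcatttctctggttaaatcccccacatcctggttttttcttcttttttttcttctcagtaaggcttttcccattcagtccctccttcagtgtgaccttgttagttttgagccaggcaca
Lama5, chr2:180225860-180226109, minus strand: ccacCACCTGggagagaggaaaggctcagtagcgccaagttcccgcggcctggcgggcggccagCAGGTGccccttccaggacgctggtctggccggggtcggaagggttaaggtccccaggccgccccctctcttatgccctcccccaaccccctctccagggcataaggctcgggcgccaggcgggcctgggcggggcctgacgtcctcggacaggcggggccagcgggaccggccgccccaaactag
Itga4, chr2:79255176-79255425, plus strand: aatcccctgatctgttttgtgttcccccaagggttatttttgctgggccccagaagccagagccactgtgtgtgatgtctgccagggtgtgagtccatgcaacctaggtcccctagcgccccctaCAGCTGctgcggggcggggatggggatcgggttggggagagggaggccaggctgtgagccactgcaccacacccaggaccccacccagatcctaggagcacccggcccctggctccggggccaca
Col5a1, chr2:27886175-27886424, plus strand: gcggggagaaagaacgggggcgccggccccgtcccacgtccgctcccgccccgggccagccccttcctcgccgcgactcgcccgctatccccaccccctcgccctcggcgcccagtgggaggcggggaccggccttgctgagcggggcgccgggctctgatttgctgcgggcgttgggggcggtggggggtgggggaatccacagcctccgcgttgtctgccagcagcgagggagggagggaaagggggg
Itga5, chr15:103366792-103367041, minus strand: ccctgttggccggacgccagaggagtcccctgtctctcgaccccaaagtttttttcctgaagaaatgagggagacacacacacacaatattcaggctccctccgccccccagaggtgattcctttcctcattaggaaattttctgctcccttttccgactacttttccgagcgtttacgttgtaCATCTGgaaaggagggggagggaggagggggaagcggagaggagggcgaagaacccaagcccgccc
Lama5 has 2 such words, CACCTG and CAGGTG, at 246 and 186 bases before the start. Itga4 has CAGCTG, the form that MYOD1 prefers, at 125 bases, and Itga5 has CATCTG at 66 bases. Col10a1, Col9a1 and Col5a1 have none in the windows shown, but the table holds 2 promoters for Col9a1 and the other one has a CANNTG word. Both strands are covered, because the words searched read the same on either strand or were sought on both. CANNTG occurs in 66.2% of the 32851 promoters of the table and in 43 of 68 member promoters, or 63.2%. CAGCTG, which is one of the CANNTG words, occurs in 13.0% of all promoters and in 14 member promoters, or 20.6%. The direct repeat of AGGTCA with 1 base between, bound by PPARG with its partner RXR, was in 11 promoters of the table and in 0 of those of members. The table held promoters for 62 of the 86 members, 25 of them among those compared. A match is a stretch of letters and not a site shown to be bound.

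With Myod1 expression, the 3 laminin-binding integrin chains, Lama5, Itgb6, Col9a1 and Col10a1 were higher than in both controls, while Col5a1, Col16a1, Lama4, Lamc1, Itga4 and Itga9 were lower. Of the 38 members, 9 were at least 2-fold higher and 9 at least 2-fold lower than the expression vector control, beside 14.0% and 7.55% of all genes. Against both controls 8 were higher and 6 lower, beside 11.9% and 4.42%. The median was -0.29 over members and 0.02 over all genes, and -0.12 over members against the knockdown vector control. By family the medians were -0.51 for collagens, -0.24 for laminins and -0.11 for integrins. The median of laminins turned to 0.29 and that of integrins to 0.02 against the knockdown vector control. The scaling of this library matters: division by the column sum moved the median of all genes to -0.27, and the share of higher genes among the genes past 2-fold changed from 65.0% to 39.4%.

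All 3 laminin-binding alpha chains were higher with Myod1 expression against both controls. Itga7 (ENSMUSG00000025348, GRCm38 chromosome 10, 128933818 to 128958282) encodes the alpha7 chain, the main laminin receptor of skeletal muscle fibres. Its FPKM was 31.0 with Myod1 expression, 4.38 with Pparg expression, 0.361 with Setdb1 knockdown, and 0.280 and 0.133 in the expression and knockdown vector controls. The Myod1 library was the highest and the Pparg library the next, both apart from the other 3. The fold over the expression vector control was 111 (80.1 to 157), a log2 ratio of 4.64, and the log2 ratio against the knockdown vector control was 4.82. Itga6, whose chain anchors epithelia and is also found on myoblasts, had 30.4 with Myod1 expression, 6.34 with Pparg expression, 6.20 with Setdb1 knockdown, and 8.70 and 10.1 in the controls. It was thus high in the Myod1 library alone, 3.49-fold (3.28 to 3.71) above the expression vector control. Itga3, a chain of epithelial laminin receptors, had 2.58 with Myod1 expression, 1.75 with Pparg expression, 1.58 with Setdb1 knockdown, and 0.375 and 0.105 in the controls. All 3 treated libraries were above both controls for Itga3, and the fold with Myod1 expression was 6.89 (4.81 to 10.1). The 3 chains together reached 63.9 with Myod1 expression, against 9.36 and 10.3 in the controls. They made up 62.1% of the summed FPKM of all integrin alpha chains with Myod1 expression and 14.9% and 20.2% in the controls.

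The 2 alpha chains that bind VCAM1 went the other way in this comparison. Itga9 (ENSMUSG00000039115, chromosome 9, 118606690 to 118901003) had an FPKM of 2.17 with Myod1 expression, 3.32 with Pparg expression, 2.38 with Setdb1 knockdown, and 8.01 and 7.69 in the controls. Itga4 had 0.783 with Myod1 expression, 1.12 with Pparg expression, 0.475 with Setdb1 knockdown, and 3.14 and 3.29 in the controls. For both genes the 2 controls were close to each other and every treated library was lower. With Myod1 expression Itga9 was 3.68-fold lower (3.21 to 4.23) and Itga4 4.02-fold lower (3.40 to 4.77) than the expression vector control. The call for Itga4 was lost when trends with GC content and gene length across all genes were removed, at a log2 ratio of -0.67. Itga9 overlaps Gm10157, a pseudogene on the opposite strand that was at 10.0 with Myod1 expression, 13.2 with Setdb1 knockdown, 3.65 with Pparg expression, and 3.57 and 3.66 in the controls, and how the counting treated strand is not given in the sources used here.

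Of the 6 beta chains compared with Myod1 expression, 1 was called higher and 1 lower, which in so few genes is close to the 14.0% and 7.55% of all genes. Itgb1 had an FPKM of 67.1 with Myod1 expression, 90.9 with Pparg expression, 41.3 with Setdb1 knockdown, and 96.6 and 92.8 in the controls, and its log2 ratio with Myod1 expression stayed below 2-fold. The ratio of summed beta to summed alpha chains was 1.04 with Myod1 expression and 2.53 and 2.62 in the controls. Itgb6, whose chain pairs with alphaV and can activate latent TGF-beta, had 192 reads and an FPKM of 1.72 with Myod1 expression, 1 read with Setdb1 knockdown and none elsewhere. It was at least 66.5-fold above the 3-read floor of the expression vector control. Itgb3, whose chain also pairs with alphaV, had 7.22 with Myod1 expression, 16.6 with Pparg expression, 33.7 with Setdb1 knockdown, and 22.8 and 11.3 in the controls. Its call as lower held against the expression vector control alone, at a log2 ratio of -1.53, and was -0.58 against the other. Itga2b, the alpha chain of the platelet fibrinogen receptor, had a log2 ratio of 1.05 to the expression vector control and 0.96 to the other.

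Among genes that matched the pattern without being chains, Itgb1bp2 had the highest ratio of any member. It encodes melusin, a muscle protein that binds the tail of the beta1 integrin. Its FPKM was 156, from 4417 reads, with Myod1 expression, 0.0290 with Pparg expression, 0.0332 in the knockdown vector control and 0 in the remaining libraries. This is 1529.7-fold above a floor of 3 reads set for the expression vector control. Itgb1bp1, a general regulator of the same integrin tail, had 13.1 with Myod1 expression, 10.4 with Pparg expression, 16.3 with Setdb1 knockdown, and 13.5 and 15.5 in the controls, and was not called in any comparison.

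Laminin chains shifted in make-up with Myod1 expression. Lama5 (ENSMUSG00000015647, chromosome 2, 180176373 to 180225859), the most widely expressed laminin alpha chain, had an FPKM of 16.7 with Myod1 expression, 12.0 with Pparg expression, 6.04 with Setdb1 knockdown, and 7.05 and 2.86 in the controls. Lama4 (chromosome 10, 38965515 to 39110188), a chain of vessel and muscle laminins, had 2.74 with Myod1 expression, 5.28 with Pparg expression, 6.76 with Setdb1 knockdown, and 8.14 and 6.82 in the controls. Lama5 was thus highest and Lama4 lowest in the Myod1 library, with Lama5 2.37-fold higher (2.22 to 2.53) and Lama4 2.98-fold lower (2.69 to 3.29) than the expression vector control. The ratio of Lama5 to Lama4 was 6.09 with Myod1 expression, 2.26 with Pparg expression, 0.893 with Setdb1 knockdown, and 0.866 and 0.419 in the controls. The call for Lama5 was lost when libraries were scaled by column sum or by the 75th percentile. The call for Lama4 was lost when trends with GC content and length were removed, at a log2 ratio of -0.98, just short of the limit. Lamc1, the gamma chain of most laminins (chromosome 1, 153218922 to 153332786), had 15.2 with Myod1 expression, 28.4 with Pparg expression, 28.2 with Setdb1 knockdown, and 40.9 and 35.2 in the controls. Its log2 ratio with Myod1 expression was -1.37, a 2.68-fold lower level (2.55 to 2.82). Lamb2 was at 28.4, between the controls at 36.6 and 18.7.

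Collagen RNA had nearly the same sum with Myod1 expression (38.8) as in the expression vector control (39.7), made of other chains. Col10a1 (ENSMUSG00000039462, chromosome 10, 34389981 to 34397085) encodes collagen X, the short-chain collagen known from hypertrophic cartilage. Its FPKM was 16.03 with Myod1 expression, 0.467 with Pparg expression, 0.242 with Setdb1 knockdown, and 0.156 and 0.229 in the controls. It was 102.5-fold higher (51.7 to 238) than in the expression vector control and made up 41.3% of summed collagen FPKM in the Myod1 library. Col10a1 lies over Nt5dc1 on the opposite strand, which was at 3.19 with Myod1 expression and 3.49 in that control. Col9a1, the alpha1 chain of the cartilage FACIT collagen IX, had 7.23 with Myod1 expression, 2.13 with Pparg expression, 0.224 with Setdb1 knockdown, and 0.290 and 0.389 in the controls. It was 24.9-fold higher (16.6 to 39.2). Its partner chains were not higher: Col9a2 was at 0.637 against 1.31 and Col9a3 at 0.182 against 0.381.

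Of the 5 fibrillar chains compared, 2 (Col5a1 and Col5a3) were called lower with Myod1 expression and 0 higher, and of the 5 FACIT chains 1 was lower (Col16a1) and 1 higher (Col9a1). Beside the 14.0% higher and 7.55% lower of all genes, counts in classes this small are not a result about the class. Fibrillar chains summed to 3.94 with Myod1 expression, against 14.0 and 9.34 in the expression and knockdown vector controls. Col5a1 (chromosome 2, 27886425 to 28039514) had an FPKM of 1.54 with Myod1 expression, 8.71 with Pparg expression, 4.25 with Setdb1 knockdown, and 7.37 and 5.11 in the controls. The Myod1 library was the lowest of the 5, 4.78-fold (4.11 to 5.57) below the expression vector control. Col16a1 (chromosome 4, 130047840 to 130099283) had 1.37 with Myod1 expression, 3.05 with Pparg expression, 2.71 with Setdb1 knockdown, and 9.18 and 5.00 in the controls. All 3 treated libraries were below both controls for this gene, and with Myod1 expression it was 6.72-fold lower (5.64 to 8.05). Col5a3 was at a log2 ratio of -1.56 and Col4a1 at -1.12 against the expression vector control, but at -0.79 and -0.94 against the other. Basement membrane collagens summed to 7.02 with Myod1 expression and to 13.6 and 11.6 in the controls.

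**Figure D2:**
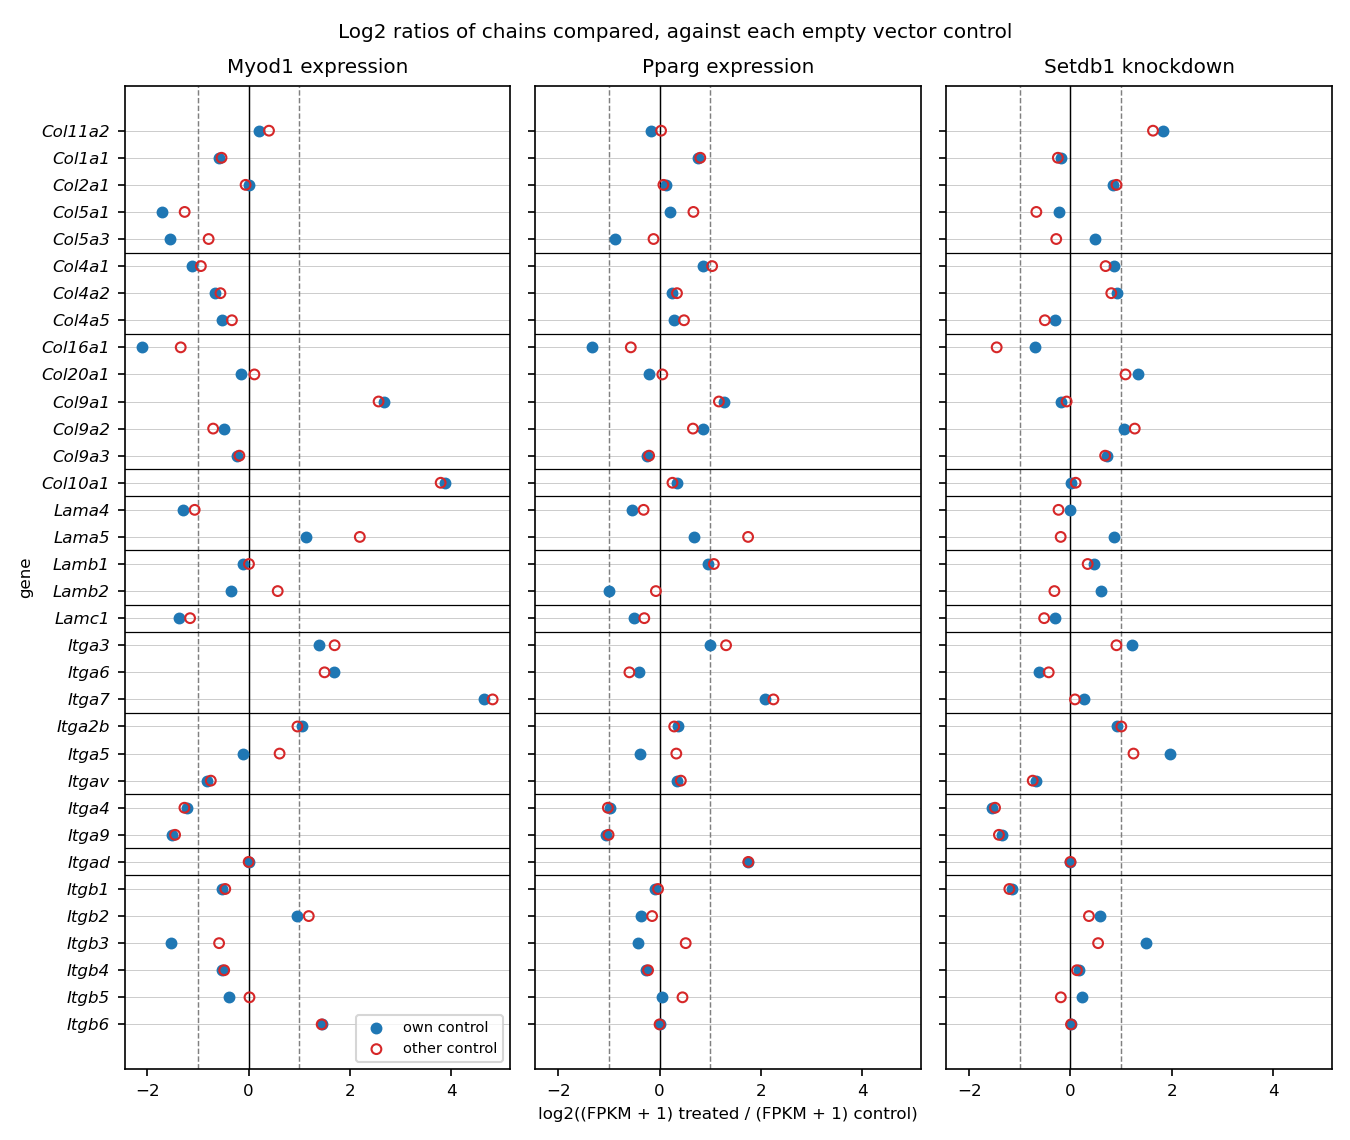
Log2 ratios, log2((FPKM + 1) / (FPKM + 1)), of the chains compared and reported, with 1 panel for each treatment. Filled points are ratios to the treatment's own control, open points ratios to the other control, and dashed lines mark 2-fold. Itga7 and Col10a1 lie farthest right with Myod1 expression, Itga7 with Pparg expression, and Itga5 and Col11a2 with Setdb1 knockdown.

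With Pparg expression Itgad, Itga7 and Col9a1 were higher than in both controls, and Itga9 was lower. Of the 38 members, 3 were at least 2-fold higher and 3 at least 2-fold lower, beside 4.22% and 2.30% of all genes (6.52% in either direction). Against both controls 3 were higher and 1 was lower, beside 3.34% and 0.849%. The median was 0.02 over members and -0.02 over all genes. Family medians were 0.23 for collagens, -0.07 for laminins and -0.09 for integrins, and those of laminins and integrins turned to 0.19 and 0.29 against the knockdown vector control. The counts depend on the pseudocount. With 0.1 in place of 1, 11 members were higher and 6 lower than the expression vector control, beside 8.81% and 4.66% of all genes.

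Itgad (ENSMUSG00000070369, chromosome 7, 128154376 to 128223816) encodes the alphaD chain of leukocyte integrins. It had 205 reads and an FPKM of 2.37 with Pparg expression and no reads in the other 4 libraries. This is 58.2-fold above a floor of 3 reads set for the expression vector control. Its neighbours Itgam and Itgax, of the same class, stayed below an FPKM of 1 in every library. Its beta partner Itgb2 had 0.239 with Pparg expression, 2.13 with Myod1 expression, 1.06 with Setdb1 knockdown, and 0.602 and 0.372 in the controls, so it was lowest where Itgad was present. Of the 6 immune cell markers, 4 had 0 reads with Pparg expression, among them Ptprc, the pan-leukocyte surface marker. Lyz2 had 18 reads there and Adgre1 had 1. Itgad overlaps Cox6a2 on the opposite strand, which had an FPKM of 136 with Myod1 expression, where Itgad had 0 reads, and 1.53 with Pparg expression. Cox6a2 was at 2.62 with Setdb1 knockdown and 0.180 and 0.176 in the controls, and its part in the Itgad reads was not tested.

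Itga7 was 15.7-fold higher (11.2 to 22.4) with Pparg expression than in the expression vector control, and Col9a1 was 7.35-fold higher (4.81 to 11.7), from the levels given above. Both were also higher with Myod1 expression, which was compared with the same control library. Itga9 was 2.41-fold lower (2.16 to 2.69), a log2 ratio of -1.06. The call was lost with scaling by column sum and with removal of trends with GC content and length, where the ratio stayed at or below -0.98. Itga3, at 1.75 against 0.375, fell just short of the 2-fold limit on the log2 scale. Col16a1, at 3.05 against 9.18, and Lamb2, at 17.8 against 36.6, were lower than in the expression vector control, but their log2 ratios to the other control were -0.57 and -0.07.

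Basement membrane collagens summed to 19.6 with Pparg expression, against 13.6 and 11.6 in the controls, without a call for any chain. Col4a1, which forms the common type IV trimer with Col4a2, had an FPKM of 6.55 with Pparg expression, 0.912 with Myod1 expression, 5.70 with Setdb1 knockdown, and 3.14 and 2.68 in the controls. Col4a2 had 5.41 with Pparg expression, 2.43 with Myod1 expression, 8.51 with Setdb1 knockdown, and 4.44 and 4.05 in the controls. The 2 genes start head to head on chromosome 8, and their ratio was not constant: Col4a1 over Col4a2 was 1.21 with Pparg expression, 0.375 with Myod1 expression, 0.670 with Setdb1 knockdown, and 0.708 and 0.661 in the controls. Lamb1 was at 4.70 with Pparg expression and 1.96 and 1.71 in the controls, and took 20.9% of beta laminin FPKM against 5.07% and 8.38%. Col1a1, the major fibrillar chain of connective tissue, had 1.92 with Pparg expression, 0.155 with Myod1 expression, 0.461 with Setdb1 knockdown, and 0.737 and 0.674 in the controls, while its trimer partner Col1a2 was at 0.0630 with Pparg expression, below both controls.

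With Setdb1 knockdown the fibronectin receptor alpha chain and several minor collagens were higher, and the beta1 chain and the alpha4 and alpha9 integrins were lower. Of the 38 members, 7 were at least 2-fold higher and 3 at least 2-fold lower than the knockdown vector control, beside 9.34% and 10.3% of all genes. Against both controls 4 were higher and 3 lower, beside 5.80% and 7.56%. The count of higher members depends on the pseudocount. Against the knockdown vector control it was 14 with 0.1 in place of 1, and 15 with a minimum of 3 reads without pseudocount. Under either setting 15.0% of all genes were higher and 16.3% lower, and the count of lower members stayed within the bounds used below. A 4-fold limit left 0 members higher and 0 lower. The median was 0.19 over members and 0.00 over all genes, and 0.01 over members against the expression vector control. Family medians were 0.61 for collagens, 0.54 for laminins and 0.16 for integrins, and that of laminins turned to -0.21 against the expression vector control.

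Itga5 (ENSMUSG00000000555, chromosome 15, 103344286 to 103366763) had an FPKM of 70.0 with Setdb1 knockdown, 26.8 with Myod1 expression, 21.9 with Pparg expression, and 29.0 and 17.2 in the expression and knockdown vector controls. The knockdown library stood above all others, 4.07-fold (3.84 to 4.31) over its own control, with log2 ratios of 1.96 and 1.24 to the 2 controls. Itga5 made up 77.5% of the summed FPKM of alpha chains there, against 33.6% in its control. Itgb1, the beta chain that alpha5 pairs with, was lowest in the same library, 2.25-fold (2.15 to 2.35) below its control. The ratio of Itgb1 to summed alpha chains was 0.457 with Setdb1 knockdown and 1.81 in its control. Itgb3 was 2.98-fold higher than in the knockdown vector control, but its ratio to the expression vector control was 0.55 on the log2 scale. Itgb1 over Itgb3 was thus 1.22 with Setdb1 knockdown, against 8.20 and 4.24 in the knockdown and expression vector controls. Itga4 was 6.93-fold lower (5.72 to 8.45) and Itga9 3.23-fold lower (2.85 to 3.66), and both were lower against the expression vector control as well, at -1.49 and -1.41. Gm10157, over Itga9 on the opposite strand, was highest in this library, as given above, and its part in the result was not tested. The calls for Itgb1 and Itga4 were lost when trends with GC content and length were removed, at log2 ratios of -0.97 and -0.78.

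Chains of collagens XI, IX and XX were higher with Setdb1 knockdown. Col11a2, a chain of the fibrillar collagen XI, had an FPKM of 3.54 with Setdb1 knockdown, 0.680 with Myod1 expression, 0.298 with Pparg expression, and 0.466 and 0.271 in the expression and knockdown vector controls. It was 13.0-fold higher (9.05 to 19.4) than its control. Col9a2 had 4.56 with Setdb1 knockdown, 0.637 with Myod1 expression, 3.20 with Pparg expression, and 1.31 and 1.66 in the controls, a 2.74-fold higher level (2.14 to 3.54) whose call was lost with scaling to the 75th percentile and with those trends removed. The knockdown library was the highest of the 5 for both genes, and also for Col9a3 (1.22) and Col2a1 (1.16), which were not called. Col9a1, by contrast, was at 0.224. Col20a1, a FACIT collagen, had 2.19 with Setdb1 knockdown, 0.359 with Myod1 expression, 0.304 with Pparg expression, and 0.50 and 0.256 in the controls. It was 8.54-fold higher (5.49 to 13.9). It overlaps 9230112E08Rik on the same strand, which was at 5.00 with Setdb1 knockdown and 1.61 in its control, so reads of the 2 genes cannot be told apart with certainty.

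Itga3 was 15.1-fold (8.00 to 32.05) above the knockdown vector control and 4.21-fold (2.91 to 6.25) above the expression vector control, where its log2 ratio of 0.91 on the scale with the added 1 fell short of the limit. Basement membrane collagens summed to 19.7 with Setdb1 knockdown, against 11.6 in its control, with Col4a1 (0.87) and Col4a2 (0.91) both short of 2-fold.

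**Figure D3:**
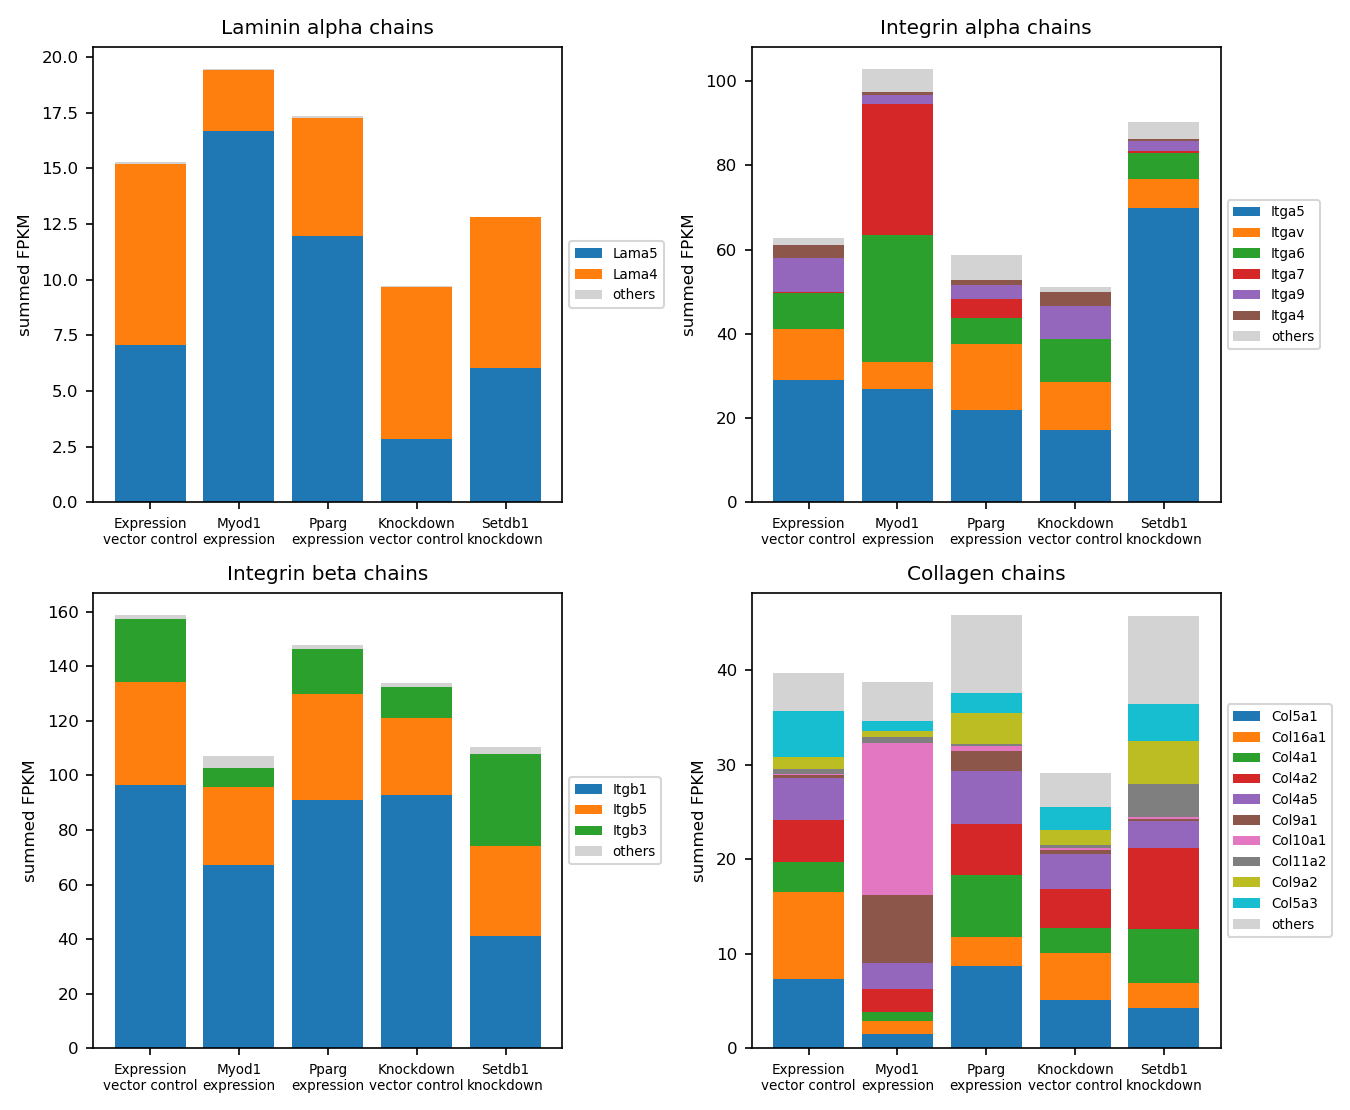
Summed FPKM of laminin alpha, integrin alpha, integrin beta and collagen chains in each library (bars, 1 library per group), split by chain. Lama5 fills 85.6% of the laminin alpha bar with Myod1 expression, Itga5 77.5% of the integrin alpha bar with Setdb1 knockdown, and Itgb1 37.4% of the integrin beta bar there against 69.4% in its control.

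Genes that build, cut and anchor these chains were taken from 6 lists. Their counts are to be read beside the shares of all genes at least 2-fold higher and lower, which were 14.0% and 7.55% with Myod1 expression, 4.22% and 2.30% with Pparg expression, and 9.34% and 10.3% with Setdb1 knockdown. In lists this short, a difference of 1 or 2 genes from those shares is not a result about the list. Between the 2 controls, genes past 2-fold were found in 3 of the lists and were all lower in the knockdown vector control: 3 that modify and fold collagen (P4ha1, P4ha2 and Plod2), as many as were lower with Myod1 expression, 1 of collagen processing (Loxl2) and 1 other integrin ligand (Fn1). Of 17 compared genes that modify and fold collagen, 0 were higher and 3 lower with Myod1 expression, 0 and 0 with Pparg expression, and 2 and 2 with Setdb1 knockdown. With Myod1 expression the lower ones were P3h3, a prolyl hydroxylase (-1.64), Plod2, a lysyl hydroxylase (-1.53), and Serpinh1, the collagen chaperone (-1.17). With Setdb1 knockdown P3h1, also a prolyl hydroxylase, was at 1.5 and the coat protein Sec23a at 1.01, and P4ha1, which hydroxylates proline, at -1.43 and Plod2 at -1.05. Plod2 differed between the controls, with FPKM of 19.2 in the expression and 8.30 in the knockdown vector control, and its ratio with Myod1 expression was -0.41 against the latter.

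Of 11 compared genes for collagen processing and crosslinking, 1 was higher and 6 lower with Myod1 expression, and 1 and 3 against both controls. Mmp9, a gelatinase, was at 2.01, Loxl2, a lysyl oxidase, at -2.04 and Mmp14, a membrane-bound collagenase, at -1.93. The ratio of Loxl2 was -0.34 against the knockdown vector control. With Pparg expression 0 were higher and 1 lower (Pcolce, an enhancer of procollagen cleavage, -1.20), and with Setdb1 knockdown 1 was higher (Bmp1, which cleaves procollagen ends, 2.43) and 0 lower. Of 12 basement membrane partners and other laminin receptors, 4 were higher and 3 lower with Myod1 expression, 1 and 1 with Pparg expression, and 1 and 2 with Setdb1 knockdown. Bcam, a receptor of the laminin alpha5 chain, was at 2.99 with Myod1 expression and 2.14 with Setdb1 knockdown, and Smoc1 at 2.60 with Myod1 expression. Fbln1, a fibulin of the basement membrane, was lower in each, at -1.34, -1.57 and -1.64 with Myod1 expression, Pparg expression and Setdb1 knockdown. Agrn was at -1.43 with Myod1 expression, Sparc, a collagen-binding secreted protein, at 1.12 with Pparg expression, and Nid1, which links laminin to collagen IV, at -1.13 with Setdb1 knockdown.

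Inside the cell, 22 adaptors and signalling proteins of integrins were compared. With Myod1 expression 4 were higher and 2 lower, with Pparg expression 0 and 1, and with Setdb1 knockdown 1 and 5. Lims2 (2.52) and Ilk (1.71), which join in one adaptor complex, were higher with Myod1 expression, and the actin crosslinkers Flna (-1.30) and Actn4 (-1.26) were lower. Parvb, of the parvin adaptors, was at -1.74 with Pparg expression. With Setdb1 knockdown Lims1 was at -2.01 and Tns3, a tensin, at -1.65, and Pxn, the scaffold paxillin, at 1.25. Of 8 other integrin ligands, 3 were higher and 1 lower with Myod1 expression, 1 and 0 with Pparg expression, and 2 and 1 with Setdb1 knockdown. Spp1 (osteopontin) was at 4.94 with Myod1 expression and 2.59 with Setdb1 knockdown, Thbs1 (thrombospondin) at 2.58 with Pparg expression, and Fn1 (fibronectin) at -1.63 with Myod1 expression. Ctgf was at 1.96 with Myod1 expression and -1.16 with Setdb1 knockdown, and Vwf at 1.08 with the latter. Fibronectin itself, the ligand of alpha5, was at 5.47 with Setdb1 knockdown and 8.20 in its control, below 2-fold. Of 13 TGF-beta genes, 2 were higher with Myod1 expression (Tgfb3, 1.88, and Ltbp2, 1.04), 3 with Pparg expression, among them Ltbp1 (1.09), and 1 with Setdb1 knockdown (Tgfb1, 1.82), with 0 lower in each.

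Some of these pathway calls were short of 2-fold against the other control. With Myod1 expression this was so for Fn1 (-0.55), Agrn (-0.62) and Actn4 (-0.88). With Pparg expression it was so for Pcolce (-0.88) and Sparc (0.97), and with Setdb1 knockdown for Pxn (0.87), Nid1 (-0.89) and Ctgf (-0.28).

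**Figure D4:**
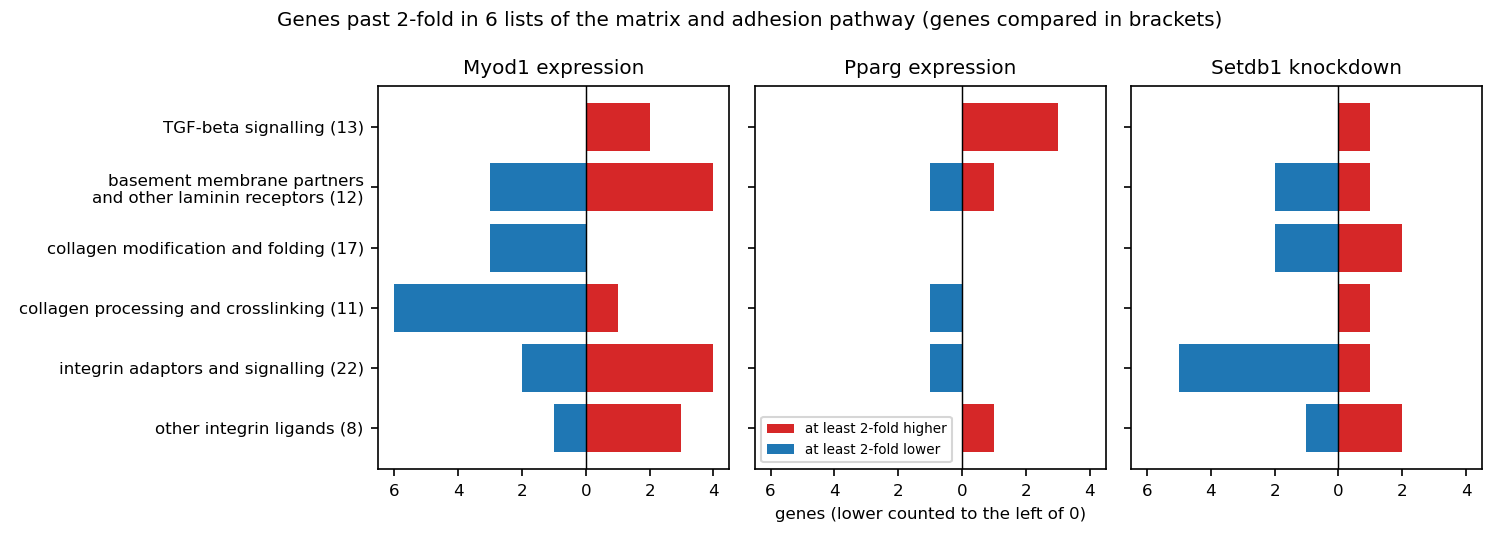
Number of genes past 2-fold in 6 lists of matrix and adhesion genes (rows, genes compared in brackets) for each treatment against its own control, with genes at least 2-fold higher to the right of 0 and lower to the left. The longest bars are the 6 lower genes of collagen processing and crosslinking with Myod1 expression and the 5 lower integrin adaptors with Setdb1 knockdown.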

How the data were processed

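Bulk RNA was sequenced in 5 libraries, 1 per group. Per the labels' protocols, TRIzol was used for total RNA and the NEBNext Ultra RNA kit for the libraries. The submitters' processing notes list CASAVA, HISAT2, featureCounts 1.5.0-p3 and the build GRCm38. The handling of strand and of reads shared between genes is not given in the sources used here. The FPKM values were deposited by the authors in a single table that, per the file headers, also holds each gene's symbol, position and length (the other measure used). Multiplied by length, 100% of the values were whole multiples of 1 step (tolerance 0.01 of a step), which gave the reads and totals of 16214802 to 18300670 per library. The number by which the authors divided was between 0.859 and 1.10 times those totals, so the FPKM carry a scaling between libraries.

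Genes with FPKM of 1 or more in some library were compared by log2 ratio with a pseudocount of 1 and a limit of 1 (2-fold). Intervals at 95% are exact conditional intervals on the ratio of reads and cover counting error only. For a control without reads, the fold was taken over a floor of 3 reads and has no interval. That fold is not a lower limit of the change. Members, lists and limits were chosen with earlier results of these data known. Values in every library are given for members changed at least 2-fold against both controls. For the highest members of classes in the controls and for partner chains, values are given for some members and libraries only. Of the pathway lists, up to 2 genes with the highest and 2 with the lowest ratios past 2-fold are named. Genes named outside this rule were chosen after their values were seen. The alternatives were another pseudocount, filter, limit, scaling or control, plus 3 chosen after seeing the data (chains alone, a 3-read minimum without pseudocount, and removal of trends with GC content and length). Promoters are from RefSeq (GRCm38.p6). The scripts, run with Python 3.11.15, numpy 2.4.6, pandas 2.3.3 and scipy 1.17.1, were tested on simulated data. Protein sequences were not used here. A few genes that enter the counts are not reported here by name.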

Additional observations from a re-analysis of the deposited data

How the results depend on the processing

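No paired analysis was possible because each group has 1 library, and for the same reason no library could be left out. No member's called log2 ratio changed sign under the alternatives run, but the family medians of laminins turned sign against the other control in all 3 treatments and those of integrins in the Myod1 and Pparg comparisons. Across alternatives 24 counts and medians moved, a count by over 1.5 times or a median out of the 95% binomial interval of the member median, and 107 stayed within those bounds. Among those that stayed, the Myod1 counts of 9 and 9 were 8 and 6 against both controls. The member medians of -0.29 (Myod1 expression) and 0.19 (Setdb1 knockdown) were -0.12 and 0.01 against the other control, and also stayed within those bounds. The values that moved follow. A 4-fold limit left 4 higher and 1 lower in the Myod1 comparison, 1 and 0 in the Pparg comparison, 0 and 0 with Setdb1 knockdown, and 0 lower between the controls. A pseudocount of 0.1 gave 11 higher and 6 lower with Pparg expression, 14 higher with Setdb1 knockdown and 3 lower between the controls. A minimum of 3 reads without pseudocount gave 14 lower in the Myod1 comparison, 11 higher and 7 lower in that of Pparg, 15 higher with Setdb1 knockdown and 5 lower between the controls. Scaling by column sum gave 5 higher and 1 lower with Pparg expression, and against the knockdown vector control 7 were higher. The change against both controls held for 1 lower with Pparg expression and 4 higher with Setdb1 knockdown. The median between the controls was -0.0069 without a filter and -0.000145 after removal of trends with GC content and length, which also left 0 lower there. Compared collagens had a median GC content of 59.1%, beside 50.1% for all genes. That removal ended the calls for Itga4 (Myod1 expression and Setdb1 knockdown), Lama4 (Myod1 expression), Itgb1, Itga3 and Col9a2 (Setdb1 knockdown), Itga2b (Myod1 expression), Itga9 (Pparg expression) and, between the controls, Lama5, and the cause was not tested. In the Myod1 comparison, the share of higher genes among all genes past 2-fold was 65.0%, 39.4% with scaling by column sum and 52.7% with the 75th percentile.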

Other observations

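Some chains that stayed below an FPKM of 1 in every library, and so entered no count, still differed by many reads. They were picked after their values were seen and are given as values only. With Pparg expression Col12a1, a FACIT collagen of tendon and muscle sheaths, had 286 reads against 18 in the expression vector control and 10 in the knockdown vector control, a 13.5-fold higher level (8.41 to 23.2) than in the former. Col18a1, a basement membrane collagen, had 124 reads against 9, an 11.7-fold higher level (5.99 to 26.3). Col8a1, a short-chain collagen, had 126 reads against 3, a 35.8-fold higher level (12.0 to 176). Col6a1, of the beaded filament collagen VI, had 83 reads against 7, a 10.1-fold higher level (4.69 to 25.9), and summed collagen VI was at an FPKM of 1.04 with Pparg expression and 0.169 and 0.0761 in the controls. With Myod1 expression Col17a1, a transmembrane collagen of skin, had 85 reads against 3, a 29.4-fold higher level (9.74 to 146). With Setdb1 knockdown Col7a1, the anchoring fibril collagen, had 183 reads against 24, a 6.89-fold higher level (4.49 to 11.0), but 88 reads in the expression vector control, a ratio of 1.84. Col1a2 had 11 reads with Setdb1 knockdown against 92, a 9.26-fold lower level (4.94 to 19.2). The expression vector control had 44 reads, for a 4.53-fold lower level (2.30 to 9.73).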
